A study of Mus musculus with 12 samples.

Results

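The genes that make sterols and fatty acids were followed across 5 normal mouse lungs and 7 mouse lung tumors profiled by poly-A RNA sequencing. The set was proposed as 28 enzymes and regulators by name. Of these, 27 were matched by Ensembl identifier and symbol among the 30399 genes of the deposited table, and Mvd was not analysed here. All 27 passed the filter on low values, a mean normalized read count of at least 1. The labels give the tissue alone, normal lung or tumor, with no genotype, strain, sex, age or targeted gene for any sample. The series concerns lung tumors started with CRISPR/Cas9, a nuclease guided to chosen genes, delivered without a virus. Tumors 3 and 4 share the title number 159, and tumors 5, 6 and 7 share 201, which the labels do not explain. The titles of tumors 1 and 7 carry a Spanish word for trachea. Nothing in the labels says that samples came from separate animals, so p-values measure the spread between these samples.

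Sterol synthesis joins acetyl-CoA units into mevalonate, turns mevalonate into farnesyl diphosphate, couples this into squalene, closes squalene into lanosterol and trims lanosterol to cholesterol. Fatty acid synthesis cuts citrate to acetyl-CoA, carboxylates it to malonyl-CoA and builds palmitate, which elongases lengthen and desaturases give a double bond. SREBP transcription factors, encoded by Srebf1, which favours fatty acid genes, and Srebf2, which favours sterol genes, are released when membrane sterol is low, and INSIG proteins hold them in the endoplasmic reticulum. In the lung these pathways are best known for supplying alveolar type 2 cells with the saturated phosphatidylcholine of surfactant.

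The depth of the table, recovered from the worth of 1 read in each column, was 11126432 to 17032234 gene-assigned reads per normal lung, and per tumor 13093843 to 24217633. At that depth 3 reads are worth a normalized count of at most 4.85 in any sample, and the lowest member value, 19.2 for Lss, lies above this. All 6 neuroendocrine markers examined (among them Chga, Insm1, Syp, Calca and Uchl1) were called higher in tumor, beside 31.4% of all genes tested. All 10 alveolar type 2 markers and all 6 endothelial markers were called lower, beside 30.1%. The summed alveolar type 2 markers lay between 282935 and 430698 normalized counts in normal lung but between 1027 and 6918 in tumor. In tumor 7, which had the highest of these tumor sums, 5613 came from Lyz2, a gene that macrophages also express, and Sftpa1 was at 0. Tumor 7 stood apart in muscle and fat markers. Its summed cardiac muscle markers reached 33146, against at most 3528 in any other sample, and its summed adipocyte markers 13508, against at most 2382.

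The RefSeq promoters of the members are given first. A promoter here is 250 bases before to 50 after a gene's start, build GRCm38.p6, and 22 of the 27 members had an entry. The sterol regulatory element TCACNCCAC, the classical SREBP site, was searched on both strands and was found in 1 member, Hmgcs1, or 4.55% of the 22, and in 1.44% of the 27025 genes with a promoter of this length. The box CCAAT, which the NF-Y factor binds, was found in 19 members (86.4%) and in 41.1% of all these genes. The Sp1 box GGGCGG was found in 18 members (81.8%) and in 38.2%. These matches describe letters in a window and are not evidence of binding. Only exact matches inside the window were counted, so a member without a match may still have an SREBP site. Fdft1, Fdps, Scd1, Scd2 and Sqle had no promoter entry. The promoters below are those of Hmgcs1, the member with the sterol element, and of Elovl6, Acaca, Elovl1 and Lpcat1, which had the largest changes in either direction among the members with an entry. Capitals mark the sterol regulatory element and the CCAAT box, which reads ATTGG when it lies on the opposite strand. No marked motifs overlap. The element of Hmgcs1 begins 137 bases before the start site, and the window holds 4 CCAAT boxes, on both sides of the element.
Hmgcs1 (chr13:119690101-119690400, plus strand): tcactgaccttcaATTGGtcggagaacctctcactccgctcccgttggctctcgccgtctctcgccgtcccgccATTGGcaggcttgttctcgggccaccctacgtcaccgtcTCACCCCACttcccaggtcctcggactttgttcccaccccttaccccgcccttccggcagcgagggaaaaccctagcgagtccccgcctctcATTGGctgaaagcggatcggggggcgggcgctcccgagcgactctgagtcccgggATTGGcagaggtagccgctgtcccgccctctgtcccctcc
Elovl1 (chr4:118427843-118428142, plus strand, the upstream of its 2 listed starts): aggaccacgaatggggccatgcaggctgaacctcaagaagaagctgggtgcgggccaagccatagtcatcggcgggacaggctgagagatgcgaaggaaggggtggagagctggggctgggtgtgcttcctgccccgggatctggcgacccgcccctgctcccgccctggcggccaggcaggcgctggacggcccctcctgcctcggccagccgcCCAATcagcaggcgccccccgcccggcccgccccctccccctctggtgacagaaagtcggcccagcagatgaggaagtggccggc
Elovl6 (chr3:129532136-129532435, plus strand): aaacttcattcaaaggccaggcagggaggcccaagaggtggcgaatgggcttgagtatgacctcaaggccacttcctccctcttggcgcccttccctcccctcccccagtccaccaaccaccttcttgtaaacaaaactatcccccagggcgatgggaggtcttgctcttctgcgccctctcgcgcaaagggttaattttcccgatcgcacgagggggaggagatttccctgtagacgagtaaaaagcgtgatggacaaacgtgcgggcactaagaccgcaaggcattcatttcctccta
Lpcat1 (chr13:73466981-73467280, plus strand): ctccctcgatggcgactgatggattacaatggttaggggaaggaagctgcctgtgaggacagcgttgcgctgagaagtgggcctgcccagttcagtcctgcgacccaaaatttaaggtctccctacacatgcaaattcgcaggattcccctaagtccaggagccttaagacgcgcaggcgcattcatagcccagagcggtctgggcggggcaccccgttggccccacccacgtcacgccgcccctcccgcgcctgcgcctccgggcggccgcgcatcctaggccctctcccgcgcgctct
Acaca (chr11:84195188-84195487, plus strand): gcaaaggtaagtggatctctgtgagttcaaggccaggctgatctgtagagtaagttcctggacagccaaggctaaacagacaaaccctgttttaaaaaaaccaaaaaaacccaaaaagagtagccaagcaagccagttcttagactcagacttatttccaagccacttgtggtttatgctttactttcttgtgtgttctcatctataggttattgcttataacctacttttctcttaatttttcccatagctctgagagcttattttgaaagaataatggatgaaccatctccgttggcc
The windows of Elovl6, which rose in tumor, and of Lpcat1, which fell, hold neither marked motif. The window of Acaca, which rose, also holds neither. Its listed start directly follows a run rich in c and t that ends in ag, as at the end of an intron. That window may therefore not hold a promoter of Acaca, and nothing is read from its lack of motifs. That of Elovl1, which fell, holds 1 CCAAT box.

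Comparing the groups shows which of these transcripts differ in level between tumor and normal lung tissue. Acaca, Elovl6, Pmvk, Fdft1 and Srebf1 were higher in tumor. Scd1, Elovl1, Lpcat1, Ebp, Scd2, Msmo1, Mvk, Nsdhl and Sc5d were lower. The remaining 13 members did not pass the threshold, an adjusted p under 0.05 from limma over all 23674 genes tested. Thus 5 of 27 members (18.5%) were called higher, beside 31.4% of all genes tested, and 9 (33.3%) were called lower, beside 30.1%. Every tumor lay above every normal lung for 5 of 27 members, beside 20.1% of all genes, and below for 8 of 27, beside 18.4%. The share of members called lower is near that of all genes. The median log2 fold change was -0.32 over the members and 0.04 over all genes tested. Changes are differences of mean log2(value + 1), and 19 members (70.4%) changed by less than 1 on this scale, beside 46.9% of all genes. In bulk tissue, fewer cells of a type and less RNA per cell cannot be told apart. Scaling all samples to the same total moved the median of all genes from 0.04 to 0.24 and gave 8 members higher and 7 lower. That scaling called 14728 of 23685 genes in either direction, against 14554 of 23674 without it. With a covariate for Y-linked expression, which was present in 4 of 5 normal lungs and 1 of 7 tumors, 5 members were called higher and 5 lower. Over all 23674 genes the fit with this covariate called 11632.

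**Figure D1:**
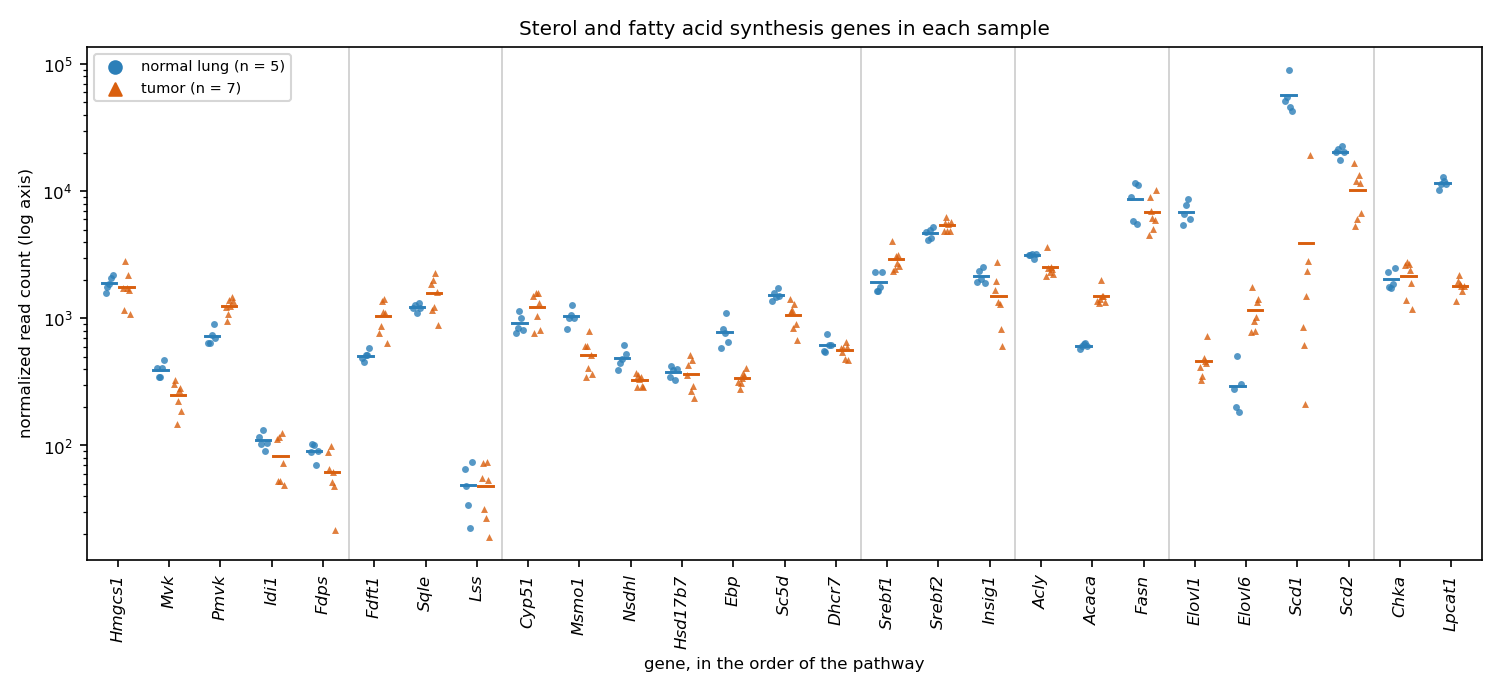
Normalized read counts (log axis) of the 27 genes in each of 5 normal lungs (circles) and 7 tumors (triangles), with horizontal lines at the group means and grey lines between the steps of the pathway. Elovl1 and Lpcat1 show gaps between the groups, while the tumors of Scd1 spread from 211 to 19234.

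**Figure D2:**
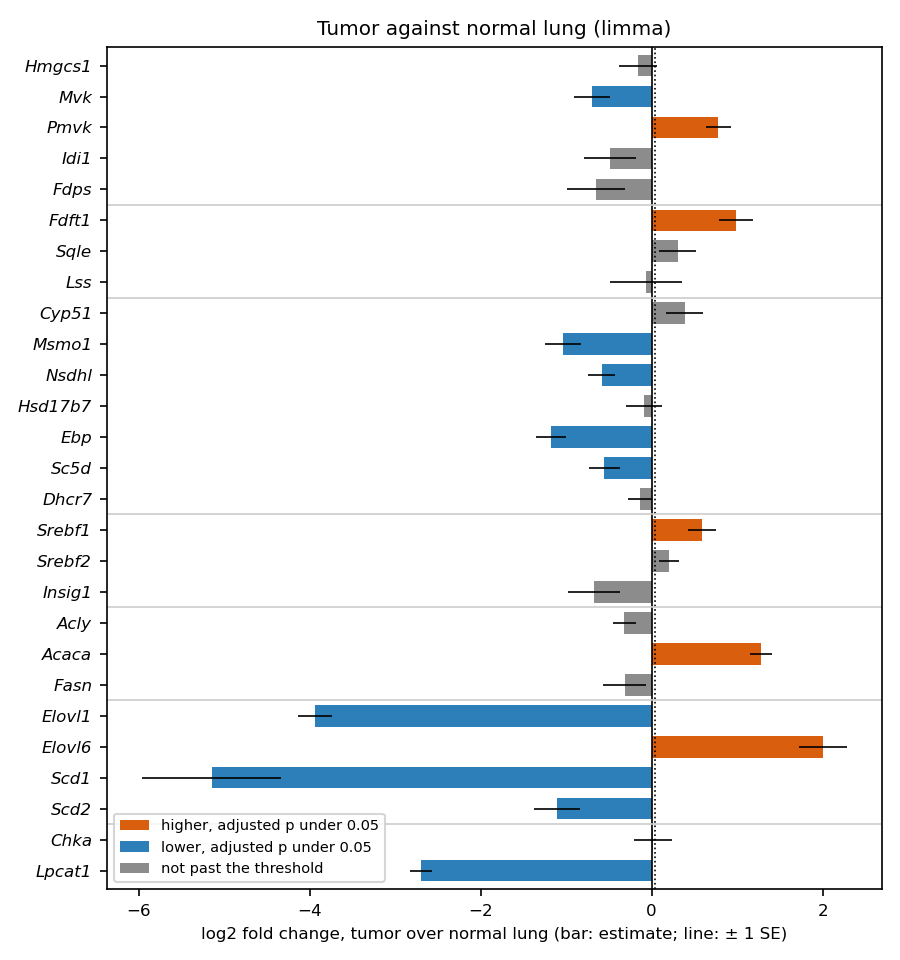
Log2 fold change of each gene, tumor over normal lung, with lines of 1 SE either way, coloured by whether the limma adjusted p was under 0.05. The dotted line is the median of all genes tested, 0.04, and the bars run from -5.15 for Scd1 to 2.01 for Elovl6.

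The mevalonate steps moved in both directions. Pmvk, which phosphorylates phosphomevalonate, had 637, 644, 745, 906 and 705 normalized counts across normal lungs 1 to 5, against 949 to 1467 with a median of 1253 in the tumors. Every tumor lay above every normal lung. The fitted log2 fold change was 0.78 (limma SE 0.15, adjusted p = 4.42e-04). Mvk, the kinase of the preceding step, went the other way, at 404, 343, 347, 406 and 470 in normal lung and at 147 to 330 with a median of 271 in tumors. The groups again did not overlap, and the log2 fold change was -0.70 (SE 0.21, adjusted p = 0.0122). The call of Mvk was lost under equal totals (adjusted p = 0.0715) and with the Y-linked covariate (adjusted p = 0.145).

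Hmgcs1, a synthase early in the mevalonate steps, overlapped between the groups, with means of 1902 ± 252 (SD, n = 5 normal lungs) and 1772 ± 600 (SD, n = 7 tumors) normalized counts. The log2 difference came to -0.16 (limma SE 0.22, adjusted p = 0.539). The isomerase Idi1 had 90.3 to 132 normalized counts in normal lung and 48.7 to 126 in tumors, and the farnesyl diphosphate synthase Fdps had 70.5 to 102 and 21.8 to 98.2. Neither passed the threshold. Counts of Fdps are uncertain, because 26.7% of its exon bases are shared with Gm43738 on the same strand in GENCODE M21.

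Among the enzymes that make squalene and close it, Fdft1 was higher. This squalene synthase had 485, 450.5, 514, 516 and 584 normalized counts in normal lungs and 641 to 1427 with a median of 1107 in tumors. Every tumor exceeded every normal lung, with tumor 7 the lowest. Tumor minus normal lung was, on the log2 scale, 0.98 (limma SE 0.20, adjusted p = 8.69e-04). Exons of Fdft1 share 774 bases (18.3%) with Ctsb on the opposite strand, and use of the strand in counting is not given in the sources used here. Sqle, the squalene epoxidase, had 1095 to 1313 normalized counts in normal lung and 886 to 2277 in tumors, a log2 change of 0.30 (adjusted p = 0.236). It passed under equal totals (0.51, adjusted p = 0.0491) and without tumor 7 (0.43, adjusted p = 0.0489). Lss, the lanosterol synthase, was near 50 normalized counts in both groups, with 49.1 ± 21.6 in normal lung and 47.6 ± 21.9 in tumors.

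Of the 7 members that act after lanosterol, 4 were lower (57.1%, beside 30.1% of all genes tested) and 0 higher (beside 31.4%). The count of lower members was 2 with the Y-linked covariate. Ebp, the sterol isomerase, had 584, 827, 764, 1093 and 653 normalized counts across normal lungs 1 to 5, against 279.9 to 408 with a median of 341 in tumors. The highest tumor was below the lowest normal lung. The log2 change of -1.18 (limma SE 0.17, adjusted p = 5.57e-05) was the largest decrease of the sterol members. Msmo1, which oxidises the methyl groups removed from lanosterol, had 818, 1015, 1068, 1274 and 998 normalized counts in normal lung and 348 to 792 with a median of 513 in tumors. It changed by -1.04 (SE 0.21, adjusted p = 8.98e-04), with no overlap. Nsdhl, the dehydrogenase that acts on the product of Msmo1, fell from 492 ± 84.5 to 325 ± 34.4 normalized counts, a log2 change of -0.59 (SE 0.15, adjusted p = 0.00476). Both Ebp and Nsdhl lie on the X chromosome. With the Y-linked covariate Ebp kept its call (-1.22, adjusted p = 0.00113) and Nsdhl lost it (-0.50, adjusted p = 0.0645). Sc5d, a sterol desaturase, changed by -0.55 (SE 0.18, adjusted p = 0.0166), and its groups overlapped, with 1363 to 1722 normalized counts in normal lung and 680.2 to 1419 in tumors. This call was lost under equal totals (adjusted p = 0.105), with the Y-linked covariate (adjusted p = 0.206) and in edgeR (adjusted p = 0.052).

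Cyp51, the demethylase of lanosterol, had 766 to 1143 normalized counts in normal lung and 766 to 1577 in tumors, a log2 change of 0.38 (limma adjusted p = 0.136). It passed under equal totals (0.59, adjusted p = 0.0256) and without tumor 2 (0.49, adjusted p = 0.0448). Dhcr7, which makes the last reduction of a branch of the pathway, and Hsd17b7, a ketoreductase, had log2 fold changes of -0.14 and -0.09 that did not pass.

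Sterol genes outside the set also differed in both directions. Of 9 listed, 4 were higher (44.4%, beside 31.4% of all genes) and 3 lower (33.3%, beside 30.1%) in tumor, with a median log2 fold change of -0.05. Acat2, the thiolase at the head of the pathway, changed by 0.89 (limma SE 0.16, adjusted p = 2.66e-04). Por and Cyb5r3, which pass electrons to the sterol oxidases, changed by -2.35 and -1.36. Acat2, Por and Cyb5r3 had groups that did not overlap.

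Of the 3 regulators, Srebf1 alone passed the threshold. It had 2325, 1641, 1628, 1758 and 2328 normalized counts in normal lungs and 2373 to 4086 with a median of 2733 in tumors. The lowest tumor was just above the highest normal lung. The change on the log2 scale was 0.59 (limma SE 0.16, adjusted p = 0.00663). Srebf2 had 4134 to 5233 normalized counts in normal lung and 4870 to 6311 in tumors, a log2 change of 0.21 (SE 0.11, adjusted p = 0.133) that passed under equal totals (0.41) and quantile normalization (0.39). Counts per gene do not separate the products of the alternative promoters of Srebf1.

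Insig1, itself a target of SREBP, had 1900 to 2552 normalized counts in normal lung. In tumors 1 to 7 it had 1682, 1952, 2765, 1345, 1290, 822 and 610.3. Tumor 1 and tumors 4 to 7 lay below every normal lung, tumor 2 within their range and tumor 3 above it. The log2 fold change of -0.68 (limma SE 0.31, adjusted p = 0.0719) did not pass, and it did when tumor 3 was left out (-0.85, adjusted p = 0.0162). Of 10 genes that process SREBP or sense sterols, 2 were higher (20%, beside 31.4% of all genes) and 5 lower (50%, beside 30.1%). The lower count was 3 under equal totals, in edgeR and in DESeq2, and 2 with the Y-linked covariate. Scap, the escort of SREBP, changed by 0.43 (SE 0.13, adjusted p = 0.00882). Nr1h3, the liver X receptor alpha that responds to oxysterols, changed by -3.21 (SE 0.42, adjusted p = 2.00e-05), and its partner Rxra by -1.42 (SE 0.23, adjusted p = 1.41e-04).

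**Figure D3:**
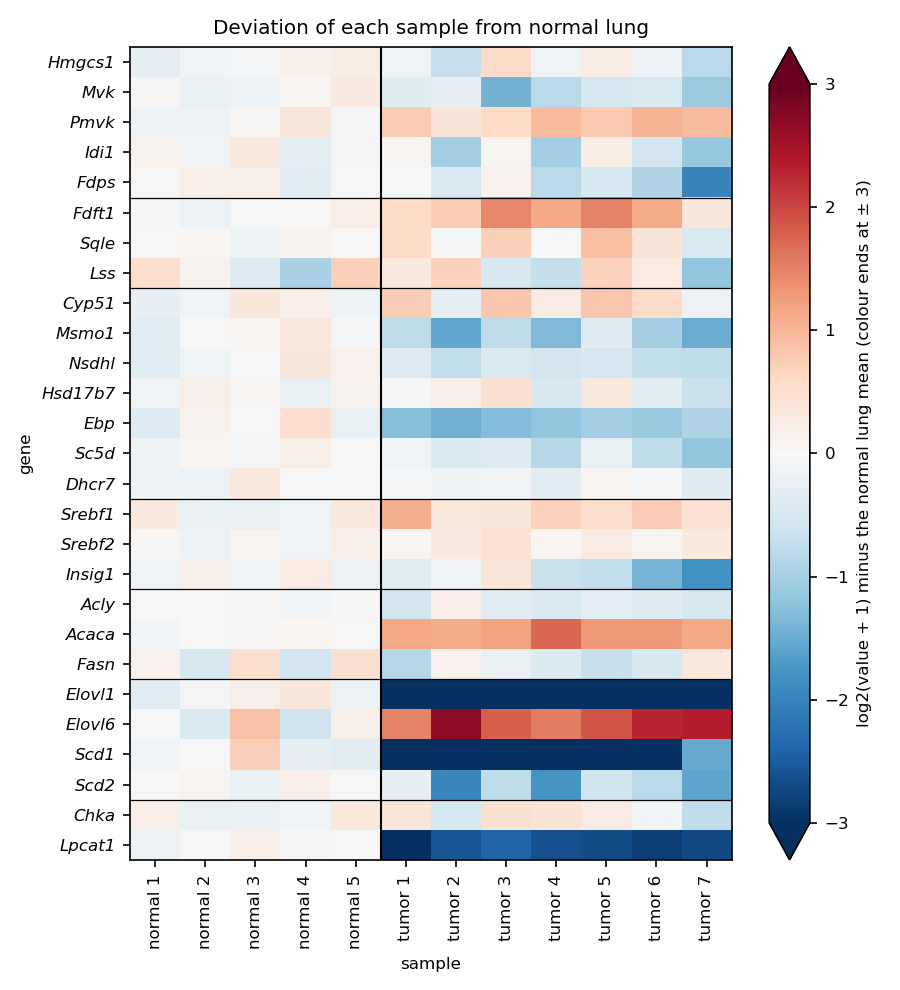
Log2(value + 1) of each gene in each sample minus the mean of the normal lungs, as colour (red above, blue below; values beyond 3 either way take the end colour). Acaca and Elovl6 are above and Elovl1, Scd1 and Lpcat1 below normal lung in all 7 tumors, and Fdps and Insig1 are lowest in tumor 7, at 21.8 and 610.3 normalized counts.

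In the cytosolic synthesis of palmitate, Acaca alone passed the threshold among 3 members. Acaca, the acetyl-CoA carboxylase that makes malonyl-CoA, had 579, 602, 627, 635 and 602 normalized counts across normal lungs 1 to 5, against 1314 to 2015 with a median of 1409 in tumors. Mean levels were 2.45-fold higher in tumor, and the groups were far apart. The fitted log2 fold change was 1.28 (limma SE 0.13, adjusted p = 2.02e-06). Acly, which cuts citrate, ranged from 2937 to 3212 normalized counts among normal lungs and from 2145 to 3617 among tumors. The log2 change of -0.32 (SE 0.13, adjusted p = 0.0517) fell just short, and without tumor 2, the highest, it was -0.41 (adjusted p = 0.00284).

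Fasn, the synthase that builds palmitate, had 8997, 5853, 11540, 5495 and 11192 normalized counts across normal lungs 1 to 5, against 4547, 9049, 7028, 6150, 5065, 5906 and 10232 in tumors 1 to 7. The groups overlapped over most of their range. The log2 difference came to -0.32 (limma SE 0.25, adjusted p = 0.283), and without tumor 7 it was -0.42 (adjusted p = 0.13). Beside these values, the 7 adipocyte markers (Adipoq, Plin1, Plin4, Cidec, Lep, Retn and Cfd) summed to 960, 466, 2382, 656 and 1698 normalized counts in normal lungs 1 to 5. The 3 normal lungs with the most Fasn were those with the highest sums. In tumors 1 to 7 the sums were 504, 555, 38.7, 1559, 116.5, 1773 and 13508, with Lep or Retn at 0 in some tumors. None of the 7 passed the threshold between the groups, and without tumor 7 Cidec did, as lower in tumor (-3.65, adjusted p = 0.0137). Tumor 7 had the highest sum and the most Fasn of the tumors, and tumor 2 had the next most Fasn without a high sum. The part of fat tissue in the level of Fasn was not tested. Per exon length, Acaca was 0.0345 to 0.0741 of Fasn in normal lungs and 0.0839 to 0.21 of it in tumors.

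The 4 members that lengthen and desaturate fatty acids all passed the threshold, 3 lower and 1 higher, and none had groups that overlapped. Of all genes tested, 31.4% were called higher and 30.1% lower. Every tumor lay above every normal lung for 20.1% of all genes, and below for 18.4%. Elovl1, an elongase of very long chains, had 5471, 6632, 7749, 8615 and 6031 normalized counts in normal lungs and 325 to 733 with a median of 445 in tumors. Its mean was 15.1-fold higher in normal lung, and 53 of its 2726 exon bases overlap the cell cycle gene Cdc20 on the opposite strand. Tumor minus normal lung was, on the log2 scale, -3.94 (limma SE 0.20, adjusted p = 2.92e-09). Elovl6, the elongase of palmitate to stearate, had 277, 202, 507, 182 and 307 normalized counts in normal lungs and 774 to 1775 with a median of 1027 in tumors. It rose 3.92-fold in mean, a log2 change of 2.01 (SE 0.28, adjusted p = 3.32e-05). Per exon length, Elovl6 was 0.00895 to 0.0277 of Elovl1 in normal lungs and 0.698 to 2.31 of it in tumors. The level of Elovl6 per length thus came close to that of Elovl1 in the tumors, and exceeded it in tumors 2, 3 and 6.

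Scd1, a stearoyl-CoA desaturase that turns stearate into oleate, was the most abundant member in normal lung, with 51056, 55030, 89441, 45793 and 42990 normalized counts. It took 0.238% to 0.498% of all reads there, of the 0.637% to 0.918% that fell to all 27 members. In tumors the members took 0.265% to 0.395%. In tumors 1 to 7 it had 851, 612, 211, 1490, 2352, 2825 and 19234. Every tumor was below every normal lung, and tumor 7 was nearest. The change on the log2 scale was -5.15 (limma SE 0.81, adjusted p = 1.06e-04), and without tumor 7 it was -5.75 (adjusted p = 1.33e-06). The change was smaller in count models of the whole reads, and why was not tested. These models, run without tumor 3, gave -3.52 in edgeR (adjusted p = 0.00381) and -3.62 in DESeq2 (adjusted p = 5.54e-06). Under quantile normalization the change was -4.52. With the Y-linked covariate it was -5.83. The means differed 14.4-fold. The level of Scd1 in tumor 7 stood beside the adipocyte sum of 13508, with Adipoq at 1928 and at most 431 in any other sample. Scd1 was also lowest where that sum was lowest, in tumor 3, while tumor 5 had a sum of 116.5 and a Scd1 of 2352. The alveolar type 2 sum without Lyz2, the marker shared with macrophages, was 893 in tumor 3, 1305 in tumor 7 and highest among tumors in tumor 5, at 3537. The 8 macrophage markers summed to 915, 674, 291, 1340, 1047, 2185 and 6527 in tumors 1 to 7, also lowest in tumor 3 and highest in tumor 7. The part of fat tissue, of macrophages or of alveolar type 2 cells in Scd1 was not tested.

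Scd2, the paralog expressed in many tissues, had 20193, 21689, 17719, 22645 and 20231 normalized counts in normal lungs and 5287 to 16671 with a median of 11700 in tumors. The groups did not overlap. The fitted log2 fold change was -1.11 (limma SE 0.27, adjusted p = 0.00302), and the call was lost under quantile normalization (-0.56, adjusted p = 0.134) and with the Y-linked covariate (-0.74, adjusted p = 0.0823). Per exon length, Scd1 was 2.26 to 5.64 times Scd2 in normal lungs and 0.0195 to 0.277 times Scd2 in tumors 1 to 6. In tumor 7 it was 3.17 times Scd2, within the range of normal lung. Scd2 was thus the larger per length of the pair in 6 of 7 tumors. Reads of these related genes may be shared between copies.

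**Figure D4:**
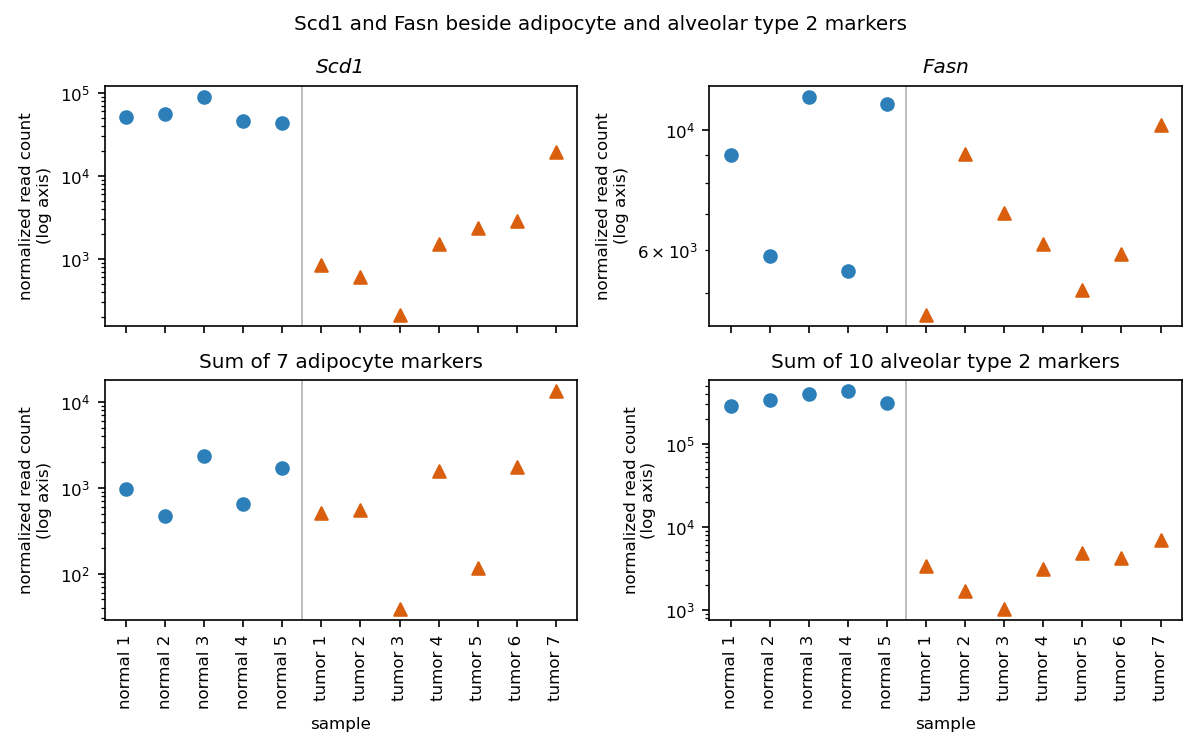
Normalized read counts (log axes) of Scd1 and Fasn and of the summed adipocyte and alveolar type 2 markers in each sample, normal lungs as circles and tumors as triangles. Tumor 7 has the highest adipocyte sum, 13508, and the highest Scd1 and Fasn of the tumors, and no tumor exceeds 6918 in the alveolar type 2 sum.

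Lpcat1 and Chka act on phosphatidylcholine. Lpcat1, the acyltransferase that makes dipalmitoyl phosphatidylcholine for surfactant, had 10204, 11468, 13050, 11954 and 11507 normalized counts in normal lungs and 1367 to 2177 with a median of 1791 in tumors. It was 6.47-fold higher in normal lung, and the tumors were close together. The log2 difference came to -2.70 (limma SE 0.13, adjusted p = 1.98e-09). Beside it, the 10 alveolar type 2 markers, which do not include Lpcat1, had a median log2 fold change of -9.02, and the part of these cells in the change of Lpcat1 was not tested. Chka, the choline kinase that opens the pathway, had 1731 to 2500 normalized counts in normal lung and 1180 to 2780 in tumors, with a log2 change of 0.02 (SE 0.23, adjusted p = 0.955).

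Further genes of fatty acid and phospholipid metabolism were read in lists, whose counts stand beside 31.4% of all tested genes higher and 30.1% lower. Of 15 other elongases, desaturases and their partners, 7 were higher (46.7%) and 4 lower (26.7%), with a median log2 fold change of 0.58. Elovl4, an elongase of very long chains known from neurons and retina, had 14.2 to 21.0 normalized counts in normal lung and 336 to 1807 in tumors, a log2 change of 5.61 (limma SE 0.37, adjusted p = 3.32e-08). Elovl2, which lengthens polyunsaturated chains, was at 0 in 2 normal lungs and at most 7.74 in the others, against 243 to 893 in tumors. Tecr and Hacd1, which complete each round of elongation, changed by 1.29 and 1.18. Elovl5 and Fads3 were lower, with log2 fold changes of -1.84 and -2.74, and so was Scd3, at 19.5 to 42.3 normalized counts in normal lung and 0 to 15.8 in tumors. Fads2, the desaturase that starts polyunsaturated synthesis, changed by 1.09 (SE 0.25, adjusted p = 0.0018), and Fads1 by 0.50 (SE 0.21, adjusted p = 0.0495), a call lost in 16 of 23 alternatives. Both overlapped between the groups, with tumor 2 the lowest tumor of each.

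Of 11 other genes of fatty acid synthesis, 3 were higher (27.3%) and 6 lower (54.5%), and the lower count was 3 in edgeR and with the Y-linked covariate. Not all of the 6 were tested in edgeR. Slc25a1, the citrate carrier of mitochondria, changed by -1.66 (limma SE 0.22, adjusted p = 2.46e-05), Me1, the malic enzyme that supplies NADPH, by -1.35 (SE 0.23, adjusted p = 1.80e-04) and Oxsm, of mitochondrial fatty acid synthesis, by -1.61 (SE 0.27, adjusted p = 1.66e-04). Each had groups that did not overlap. Of 16 other phospholipid genes, 4 were higher (25%) and 6 lower (37.5%). Pcyt1b, a form of the enzyme that activates phosphocholine, changed by 1.88 (SE 0.24, adjusted p = 1.64e-05), and the common form Pcyt1a by -0.71 (SE 0.14, adjusted p = 7.54e-04). The acyltransferase Lpcat4 changed by 1.14. Chpt1 and Cept1, which finish phosphatidylcholine, changed by -2.52 and -1.40, and Gpam and Lpin2, of glycerolipid synthesis, by -2.22 and -1.52.

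Of 12 genes of cholesterol uptake, export and storage, 1 was higher (8.33%) and 8 were lower (66.7%). The lower count was 5 in DESeq2, which gave no adjusted p for some of the 8, among them Cyp27a1. Npc2 and Soat1, of lysosomal export and of ester storage, changed by -3.49 and -2.59, and Cyp27a1, which makes an oxysterol, by -3.72, with tumor 7 at 609 just below the lowest normal lung at 617. Without tumor 7 Cyp27a1 changed by -4.31 (adjusted p = 1.63e-04), without tumor 3 by -3.10, and in edgeR by -1.999 (adjusted p = 0.0381). Ch25h, which makes another, had 80.5 to 560 normalized counts in normal lung and 0 to 52.5 in tumors, and was called lower. Of 17 genes of fatty acid uptake, binding and oxidation, 1 was higher (5.88%) and 11 lower (64.7%). The lower count was 7 under equal totals, with the Y-linked covariate and without normal lung 5, 5 in DESeq2 and 4 in edgeR. DESeq2 gave no adjusted p for some of the 11. Cd36, a fatty acid transporter of endothelium and macrophages, changed by -5.31 (SE 0.92, adjusted p = 2.25e-04), Cpt1a, which admits fatty acids to mitochondria, by -3.21 (SE 0.45, adjusted p = 4.13e-05), and the acyl-CoA synthetases Acsl4 and Acsl5 by -1.63 and -1.21. Tumor 7 had the most Cd36 and Cpt1a of the tumors, and without it they changed by -5.84 (adjusted p = 2.46e-05) and -3.51 (adjusted p = 2.07e-06). For Cd36 the change was -4.56 without tumor 3, -3.81 in edgeR and -3.90 in DESeq2. Beside these lists, all 8 macrophage markers were lower in tumor, with sums of 7646 to 23638 normalized counts in normal lung and 291 to 6527 in tumors, and Siglecf and Chil3 were at 0 in some tumors. The 6 endothelial markers summed to 48182 to 63034 and 2352 to 7404. The part of these cells in the lists was not tested. Over all 7 lists, 22 of 90 genes were higher (24.4%, beside 31.4% of all genes tested) and 43 lower (47.8%, beside 30.1%). The count of lower genes was 28 with the Y-linked covariate and 28 in edgeR. Calls in either direction over all genes also fell, from 14554 of 23674 to 11632 of 23674 with the covariate, and edgeR called 11205 of the 18308 it tested.

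**Figure D5:**
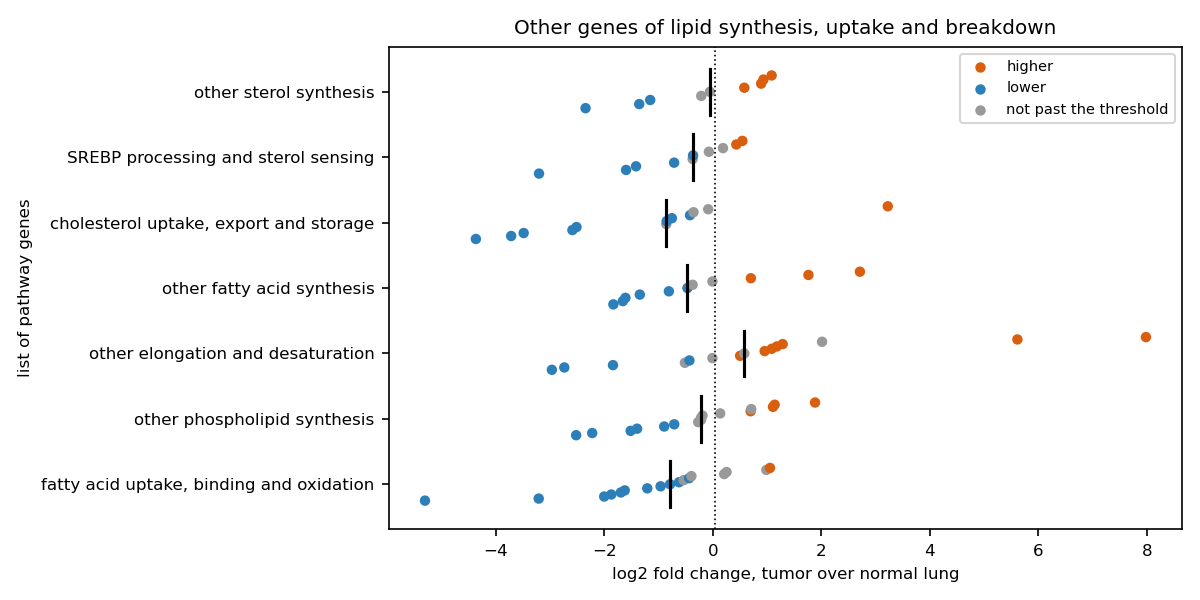
Log2 fold changes, tumor over normal lung, of the other genes of 7 lists, 1 point per gene coloured by the limma call, with a black line at each list's median and a dotted line at the median of all genes. The elongation and desaturation list has the highest median, 0.58, and the cholesterol uptake, export and storage list the lowest, -0.86.

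The tumors differed among themselves in these genes. By the SD of log2(value + 1) over the 7 tumors, the most variable members were Scd1 (2.04), Insig1 (0.74), Lss (0.73), Fdps (0.70) and Scd2 (0.65). Srebf2 (0.14) and Nsdhl (0.15) varied least. The median SD was 0.43 over the members and 0.52 over the 17093 genes with a mean of at least 20. Among the 15 sterol enzymes, tumor 7 had the lowest value of the tumors for 10, and tumor 2 for 4. Tumor 5 had the highest value for 7, tumor 3 for 3 and tumor 1 for 2. Hmgcs1 had 1731, 1169, 2833, 1728, 2191, 1673 and 1079 normalized counts in tumors 1 to 7, and Sqle had 1850, 1171, 2000, 1223, 2277, 1602 and 886. Both were lowest in tumors 2 and 7 and highest in tumors 3 and 5. Tumors 5 and 7 share the title number 201. Tumor 7 also had the lowest summed neuroendocrine markers, 23106 normalized counts against 37119 to 107256 in the other tumors. The 6 proliferation markers (among them Mki67 and Top2a) likewise had their lowest tumor sum in tumor 7, at 17086. Their highest sums were in tumors 5 and 3, at 41201 and 36666. The part of neuroendocrine or dividing cells in the sterol values was not tested.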

How the data were processed

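Gene-level values of 5 normal lungs and 7 tumors were used as deposited by the authors: a signal in the form of normalized read counts, that is, counts divided by a size factor. Per the submitters' processing notes, featureCounts, DESeq2 and build GRCm39 were used; the aligner, annotation and use of strand are not given in the sources used here. Values were whole multiples of 1 read (tolerance 0.001) in 100% of cases, which gave each column's depth. Libraries of the same group differed beyond counting noise in all 25 pairs compared (chi-square per degree of freedom at least 19.9).

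Values were taken as log2(value + 1), genes with a mean under 1 were left out, and limma 3.58.1 (R 4.3.3) was fitted over all genes with Benjamini-Hochberg adjustment. On simulated data for this comparison, with 23305 genes of which 200 were changed by 2 log2 units, limma recovered 72% and 5.88% of its calls were false. The changed genes were drawn from those with a mean of at least 20. In the real data 14554 of 23674 genes were called, so these rates are not those of the reported calls. Alternatives were other scalings, pseudocounts and filters, tumors of a shared title number averaged or correlated, a covariate for Y-linked expression, tumors titled trachea left out, each sample left out, and edgeR 4.0.16 and DESeq2 1.42.0 on whole reads of 11 samples (tumor 3, whose 1 read is worth close to 1, left out). Exon lengths and overlaps came from GENCODE M21. Members and lists were chosen with earlier results of these data known. Named genes are all members and, from each list, at most 4 a direction with the largest changes and no overlap between groups, plus Scap, Fads1, Fads2 and Pcyt1a; some genes the rule names are not reported here. Figures were drawn with matplotlib 3.10.9.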

Additional observations from a re-analysis of the deposited data

Results flagged for a closer look

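In 3 of 54 groups of samples, 1 per member and tissue, the most extreme sample lay far from the others by Dixon's test at the 95% level, which chance gives in about 1 in 20 groups, or 2.7 of 54. Acly was low in normal lung 4, at 2937 normalized counts with the next lowest at 3153. Acly was high in tumor 2, at 3617 with the next highest at 2538. Acaca was high in tumor 4, at 2015 with the next highest at 1509.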

How the results depend on the processing

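Of 27 members, 12 kept their direction and call in all 23 alternatives. The counts below stand beside calls over all genes that also moved. These were 14554 of 23674 in the main fit, 11632 of 23674 with the Y-linked covariate, 11205 of 18308 in edgeR and 13540 in DESeq2. Under equal totals 8 members were higher, with 2 at the squalene and lanosterol steps, 1 after lanosterol and 2 regulators, and 0 mevalonate members were lower. With the Y-linked covariate 5 members were lower, 0 of them mevalonate members and 2 after lanosterol, and 28 pathway genes were lower, as in edgeR. Quantile normalization gave 2 regulators higher. Acly was the 1 lower member of fatty acid synthesis with a pseudocount of 0.1 or a mean of at least 10. Insig1 was the 1 lower regulator in edgeR and DESeq2. Sterol sensing genes numbered 3 lower under equal totals, edgeR and DESeq2 and 2 with the covariate. Cholesterol genes numbered 5 lower in DESeq2, and other fatty acid synthesis genes 3 lower in edgeR and with the covariate. Some genes of the lists had no adjusted p in edgeR or DESeq2 and are not counted there. Genes of uptake and oxidation numbered 7 lower under equal totals and with the covariate, 4 in edgeR and 5 in DESeq2. Members that changed sign were not called on either side. Under equal totals Hmgcs1 was at 0.043, Lss at 0.13, Hsd17b7 at 0.12 and Dhcr7 at 0.066 on the log2 scale. Lss was also at 0.10 with quantile normalization, 0.12 with tumors averaged, 0.19 with the covariate, 0.082 without the trachea tumors, 0.10 in edgeR and 0.0497 in DESeq2. Hsd17b7 was at 0.0235 without the trachea tumors and Fasn at 0.016 with quantile normalization. Leaving out each sample gave -0.31 to 0.12 for Lss, -0.18 to 0.0084 for Hsd17b7 and -0.059 to 0.15 for Chka. Without normal lung 5, 7 genes of uptake and oxidation were lower. The cause was not tested.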
